A study of Mus musculus with 8 samples.

Results

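The genes described here are those of creatine synthesis, creatine uptake and the creatine kinase reaction, in kidney, liver, lung and small intestine of the mouse. They were chosen by symbol, as the rows of the deposited expression table named Gatm, Gamt, Slc6a8, Ckb, Ckm and Ckmt1, and 6 of 6 symbols were found among the 52195 genes of the table. All 6 passed the filter on low values, which kept genes that reached 1 FPKM in 2 or more libraries. Ckm passed it through lung, where it was above 2 FPKM, and through 1 small intestine library.

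Polyadenylated RNA was sequenced from male mice of the inbred strain C57BL/6J, given in the labels as C57BL/6, at an age of 6 to 10 weeks and with no allele, agent or treatment named. Each of the 4 tissues gave 2 libraries, from separate mice, and 8 were made in all. All 4 tissues were taken from each mouse, so libraries of different tissues can share a mouse. Tissues were excised, washed and ground whole, so each library mixes all cell types of its organ, and fewer cells of a type and less RNA per cell cannot be told apart. The values are FPKM, fragments scaled to transcript length and to the mapped reads of the library, which allows levels of different genes to be compared within a library.

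Creatine is made in a pair of reactions. Gatm, the mitochondrial enzyme L-arginine:glycine amidinotransferase, moves the amidino group of arginine to glycine and yields guanidinoacetate and ornithine, and Gamt, guanidinoacetate N-methyltransferase, methylates guanidinoacetate to creatine with S-adenosylmethionine. The kidney is known as the main site of the former step and the liver of the latter, with guanidinoacetate carried between them in the blood. Slc6a8 is the plasma membrane transporter through which cells take up creatine, and creatine kinases exchange phosphate between ATP and creatine. Ckb and Ckm are the cytosolic brain and muscle forms, while Ckmt1 and Ckmt2 are the ubiquitous and sarcomeric mitochondrial forms.

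Between 9164156 and 21444661 reads per library were counted on genes, a number recovered from how low FPKM values step from gene to gene. From 94.5% to 96.1% of these low values came out as whole reads, with a tolerance of 0.02 reads. For a gene with 1 kb of exons, 3 reads correspond to an FPKM between 0.140 and 0.327, and this floor covers counting error only. The defining markers of each organ were present in both of its libraries. Summed FPKM was 1622 to 1999 over 6 proximal tubule markers in kidney, 49229 to 54351 over 6 hepatocyte markers in liver, 14193 to 16378 over 4 alveolar type 2 markers in lung, and 5886 to 7668 over 6 enterocyte markers in small intestine. Small intestine also held pancreatic acinar transcripts, at a sum of 2911 and 1338 FPKM over 8 markers, all of them at 1 FPKM or more in both libraries, against 2.45 to 77.3 in the other 6. Differences between tissues were tested with limma on log2(FPKM + 1) over 16328 genes, and calls required both a log2 difference of more than 1 in size and a p, adjusted by Benjamini-Hochberg, of less than 0.05. The scale understates the differences of low genes.

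**Figure D1:**
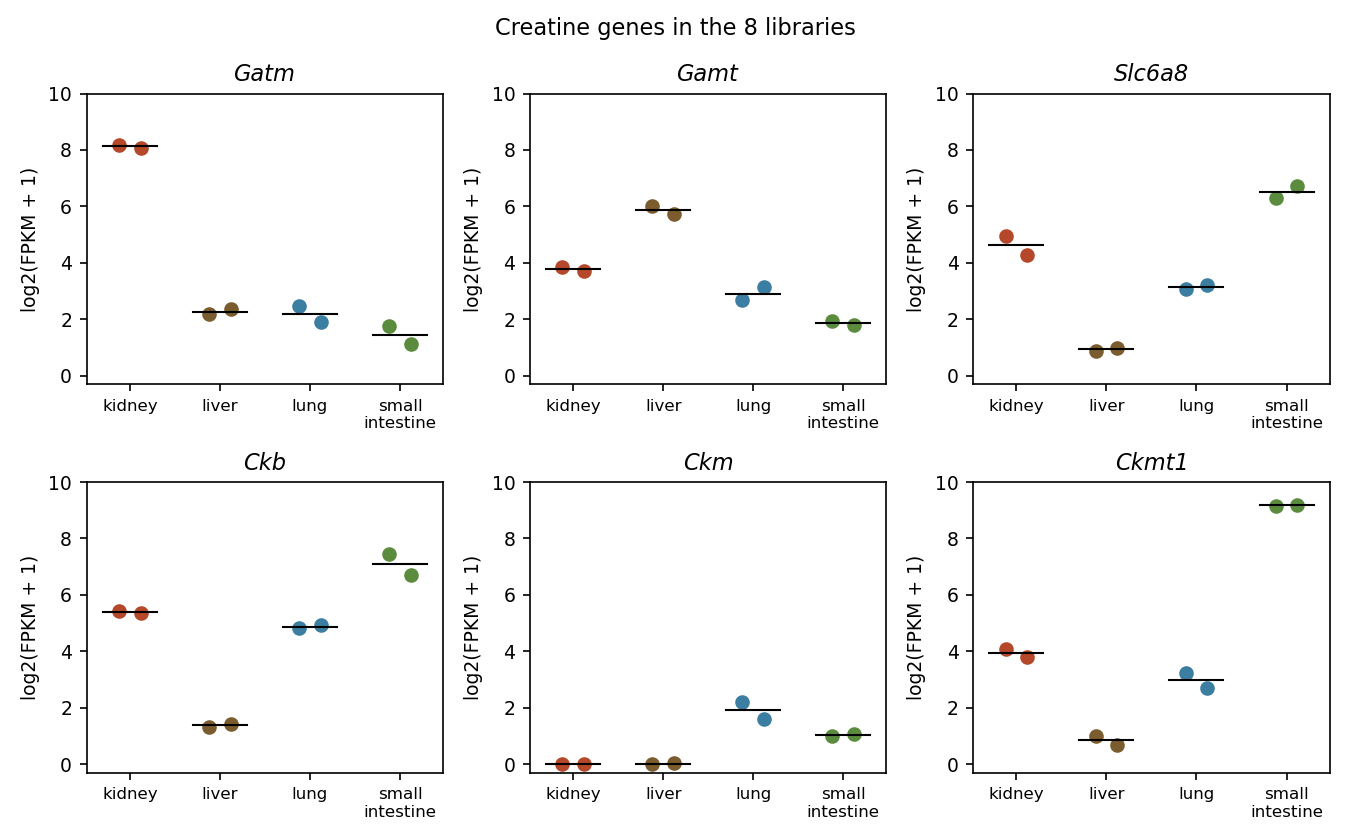
Level of each of the 6 genes in the 8 libraries, as log2(FPKM + 1) on the vertical axis, with tissues on the horizontal axis. Each point is 1 library and each line the mean of the 2 libraries of a tissue. Gatm is highest in kidney, Gamt in liver, Slc6a8, Ckb and Ckmt1 in small intestine and Ckm in lung.

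The bases before the starts of Gatm, Gamt and Ckb are shown because these genes have different leading tissues, kidney, liver and small intestine. RefSeq (GRCm38.p6), from which they are taken, matched 5 of the 6 genes. The bases read 5′ to 3′ on the strand of the gene and end where the GENCODE M21 gene begins. Capitals mark the TATA box (TATAAA), the GC box (GGGCGG) and the CCAAT box (CCAAT), searched on both strands. No 2 of the marked stretches overlap.
Gatm, chr2:122611304-122611527, minus strand: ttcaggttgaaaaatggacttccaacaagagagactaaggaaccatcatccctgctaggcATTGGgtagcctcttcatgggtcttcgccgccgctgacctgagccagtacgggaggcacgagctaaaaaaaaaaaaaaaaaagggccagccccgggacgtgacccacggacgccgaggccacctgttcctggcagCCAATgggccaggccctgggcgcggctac
Gamt, chr10:80261013-80261262, minus strand: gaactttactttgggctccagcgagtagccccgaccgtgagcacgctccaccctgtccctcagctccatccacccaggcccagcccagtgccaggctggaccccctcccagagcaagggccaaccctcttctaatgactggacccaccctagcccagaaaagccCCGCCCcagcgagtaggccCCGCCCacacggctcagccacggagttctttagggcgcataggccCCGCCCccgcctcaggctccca
Ckb, chr12:111672339-111672588, minus strand: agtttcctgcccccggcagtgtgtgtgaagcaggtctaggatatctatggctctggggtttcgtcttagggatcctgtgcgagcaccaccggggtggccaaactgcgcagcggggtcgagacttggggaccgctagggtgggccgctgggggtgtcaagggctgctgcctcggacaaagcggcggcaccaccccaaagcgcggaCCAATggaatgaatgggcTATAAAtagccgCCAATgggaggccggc
The Gatm stretch holds 2 CCAAT boxes, with their first bases 190 and 55 bases before the RefSeq start, and no TATA or GC box as spelled here. The Gamt stretch holds 3 GC boxes, all on the opposite strand, at 86, 67 and 22 bases before the start. In Ckb, a TATA box lies 28 bases before the start between CCAAT boxes at 46 and 16. Among 32851 RefSeq windows of 250 bases before a start, 12.4% held the TATA box, 32.7% the GC box and 33.8% the CCAAT box, so these matches are common. GC content was 57.6% over the 224 bases shown for Gatm, 66.8% for Gamt and 62.8% for Ckb, beside a median of 52.4% over all windows. RefSeq gave 2 starts for Ckmt1, and the window before the first held a TATA box at 31 bases before it on the opposite strand. The E-box (CANNTG), which 66.2% of all windows hold and which the capitals do not mark, occurred once in Gatm and once in Ckm. The letters GTTAAT (HNF1), CAAAGTCC (HNF4) and TTTATG (CDX), held by 6.43%, 1.20% and 10.8% of all windows, were in none of the windows of Gatm, Gamt, Ckb, Ckm and Ckmt1.

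Gatm (ENSMUSG00000027199.14) lies on chr2:122594467-122611303 of GRCm38, on the minus strand. The kidney libraries held 286 and 270.4 FPKM, where it stood at places 108 and 127 of all genes, with 99.3% and 99.2% of the tested genes below it. Liver libraries held 3.53 and 4.16 FPKM, lung libraries 4.57 and 2.76, and small intestine libraries 2.39 and 1.21. Both kidney libraries were far above the other 6, which all lay below 5 FPKM, and the kidney held 96.8% of the summed tissue means. The kidney mean of 278 ± 10.7 FPKM (SD, n = 2) was 72.3 times that of liver (3.85 ± 0.450), 75.8 times that of lung (3.67 ± 1.28) and 155 times that of small intestine (1.80 ± 0.833). The ratio to lung was 165 with median-of-ratios size factors. The difference of mean log2(FPKM + 1) between kidney and the other 6 libraries was 6.15. A two-sided exact permutation test gave p = 0.0357, which is the lowest value it can take with 2 libraries against 6. The test treats single libraries as exchangeable, although they come in 2 per tissue. It was also chosen with earlier results known, so this p describes the order of these libraries only.

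Among the other tissues the order of Gatm was not firm. Lung and liver differed by -0.08 on the log2 scale (standard error 0.26, limma adjusted p = 0.799), lung minus liver, and ranged over the alternatives run from -1.40, with quantile normalization, to 0.20. Small intestine was lower than liver by a log2 difference of -0.82 (adjusted p = 0.0288) and than lung by -0.74 (adjusted p = 0.0378), both short of the fold threshold. Without small intestine replicate 1 these were -1.13 and -1.05, and without lung replicate 2 the latter was -1.03, each then called. Without small intestine replicate 2 they were -0.51 and -0.44 (adjusted p = 0.159 and 0.209). With median-of-ratios size factors the liver level exceeded lung by a log2 difference of 1.35 and small intestine by 1.53, and both then passed, while the lung to small intestine difference did not. Markers of other cell types moved with some of these values. The summed proximal tubule markers were at 9.32 and 3.61 FPKM in the lung libraries and 2.87 and 4.13 in the liver libraries, in both organs higher in the library with more Gatm. In small intestine this sum went the other way, at 14.8 FPKM in the library with more Gatm and 35.4 in the other. Slc5a12 alone made up 13.3 and 34.2 of these sums, and their order rested on it. Distal nephron markers (6 genes) summed to 4.68 and 1.30 FPKM for lung, 1.51 and 2.39 for liver, 1.18 and 0.444 for small intestine, replicate 1 first. Within each of these organs the distal nephron sum was higher in the library with more Gatm. The small intestine library with more Gatm had more acinar transcript, and the pancreas is a tissue known to express Gatm. Their part in these low Gatm values was not tested.

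Gamt (ENSMUSG00000020150.13), on chr10:80258151-80261012, minus strand, showed another order. Liver libraries held 63.7 and 51.6 FPKM, kidney libraries 13.4 and 12.0, lung libraries 5.39 and 7.75, and small intestine libraries 2.89 and 2.45. No tissue overlapped with another, in the order liver, kidney, lung, small intestine. The liver mean of 57.6 ± 8.57 FPKM (SD, n = 2) was 4.54 times that of kidney (12.7 ± 0.990), 8.78 times that of lung (6.57 ± 1.67) and 21.6 times that of small intestine (2.67 ± 0.310). The ratios to lung and small intestine were 28.0 and 39.9 with median-of-ratios size factors. Liver held 72.4% of the summed tissue means and kidney 16.0%. Liver exceeded the other 6 libraries by 3.02 in mean log2(FPKM + 1), with the same lowest possible p = 0.0357 in the two-sided exact permutation test. The limits given for the test of Gatm hold here too. Hepatocyte markers summed to 534 and 531 FPKM in the kidney libraries, above lung (75.2 to 126) and small intestine (103 to 112, where Cps1 of this list was at 85.0 and 75.7) and far below liver. A single gene, Cyp2e1, made up 428 and 347 FPKM of the kidney sum, and without it the sums were 106 and 184 in kidney, 112 and 66.6 in lung and 109 and 101 in small intestine. Alb, at 15.5 and 40.7 FPKM in kidney, was at 69.0 and 39.0 in lung. Their part in the kidney level of Gamt was not tested.

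Of the neighbours in this order, liver and kidney differed beyond the spread between libraries (log2 difference -2.09, kidney minus liver, limma adjusted p = 0.000131). Kidney exceeded lung by a log2 difference of 0.87 (limma adjusted p = 0.00570), under the fold threshold, and passed it with median-of-ratios size factors, at 1.81, and without lung replicate 2, at 1.10. With equal sums in each library it was 0.48 (adjusted p = 0.0990), and without lung replicate 1 it was 0.65 (adjusted p = 0.0470). The difference of small intestine from lung, -1.03 (adjusted p = 0.00301), depended on the scaling and on single libraries. It was -0.37 with median-of-ratios size factors, -0.80 without lung replicate 2 and -0.94 without small intestine replicate 2, no longer called in any of these.

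The balance of the enzymes differed between organs. Gatm exceeded Gamt 21.3-fold and 22.5-fold in the kidney libraries, on the FPKM scale, which is per length. In the liver libraries Gamt exceeded Gatm 18.1-fold and 12.4-fold. In lung the Gatm to Gamt ratio was 0.848 and 0.357, and in small intestine 0.827 and 0.493, so both enzymes were low there and Gamt exceeded Gatm in each of the 4 libraries. The mean log2 ratio was 4.45 ± 0.06 in kidney, -3.90 ± 0.38 in liver, -0.86 ± 0.88 in lung and -0.65 ± 0.53 in small intestine (SD, n = 2 each). Scaling between libraries does not enter this ratio, since both values come from the same library. Kidney was not without Gamt, at 12.7 FPKM, whereas liver held Gatm at 3.85 FPKM.

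**Figure D2:**
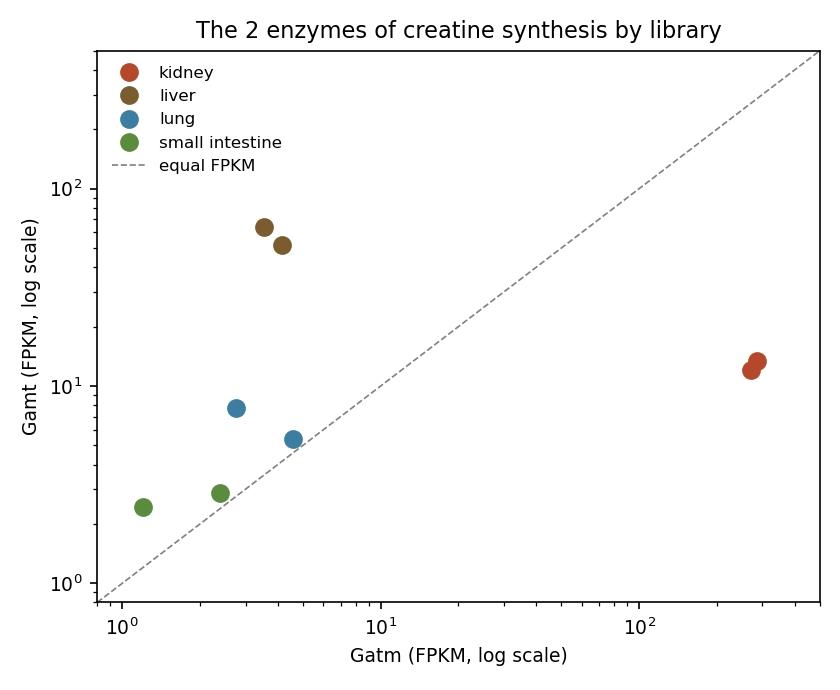
Gatm (horizontal axis) against Gamt (vertical axis), both in FPKM on log scales, with 1 point per library coloured by tissue and a dashed line of equal FPKM. The kidney points lie far below the line, with Gatm at 21.3 and 22.5 times Gamt, the liver points far above it, and lung and small intestine just above it at low levels.

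Kidney and liver were compared first, because the question named with these genes is how creatine synthesis divides between them. Of the 6 genes, 5 were called, where 23.1% of all genes tested were called in this comparison (16.2% higher and 6.9% lower in kidney). Gatm, Slc6a8, Ckb and Ckmt1 were higher in kidney and Gamt was lower. Gatm was higher by 5.85 ± 0.26 on the log2 scale (estimate and standard error, adjusted p = 1.82e-06 by limma). Gamt differed by -2.09 ± 0.20 (standard error, adjusted p = 0.000131, same fit). Over the alternatives run, including each library left out, these ranged from 5.43 to 6.40 and from -2.64 to -1.54, with adjusted p at most 8.02e-05 and 0.00250. The median log2 difference of all genes in this comparison was 0.27, and 0 with median-of-ratios size factors.

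**Figure D3:**
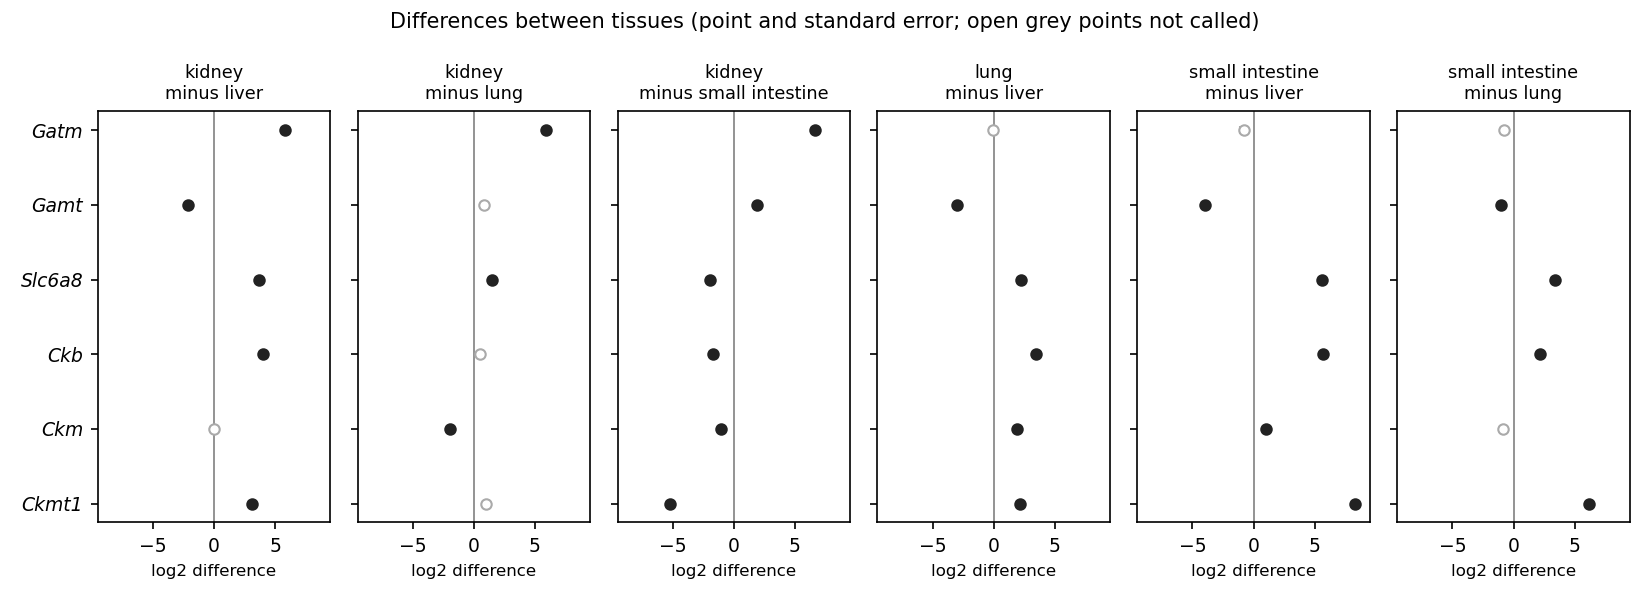
Log2 difference of each gene in the 6 comparisons of 2 tissues, on the log2(FPKM + 1) scale, first tissue minus second. Points are estimates of the limma fit with bars of 1 standard error, mostly smaller than the points. Filled points passed both thresholds and open grey points did not, and Ckm passed the filter on low values through lung. Gatm is far to the right in the 3 comparisons of kidney, and Ckmt1 and Ckb in small intestine against liver.

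Slc6a8 (ENSMUSG00000019558.14, chrX:73673150-73682502, plus strand) was highest in small intestine. The libraries of small intestine held 78.6 and 105 FPKM, those of kidney 29.7 and 18.6, those of lung 7.39 and 8.32 and those of liver 0.859 and 0.967. The groups did not overlap, and liver was the only one of these organs below 1 FPKM. The mean in small intestine was 91.7 ± 18.5 FPKM (SD, n = 2), 3.80 times that of kidney (24.2 ± 7.79), 11.7 times that of lung (7.86 ± 0.660) and 101 times that of liver (0.913 ± 0.0764). With median-of-ratios size factors the ratios to lung and liver were 20.3 and 55.3. Kidney exceeded liver 26.5-fold, a log2 difference of 3.68 (limma adjusted p = 1.39e-05). Liver, the organ with the most Gamt, thus had the least transcript of the uptake transporter. All 6 comparisons of Slc6a8 were called, although lung against liver, at 2.21 (adjusted p = 8.54e-05), was 0.94 and not called with quantile normalization. The kidney libraries differed by 0.64 on the log2 scale, more than 81.0% of the tested genes did between the same libraries. With median-of-ratios size factors they were at 28.8 and 25.9. The kidney library with more Slc6a8 also had higher sums of proximal tubule (1999 against 1622 FPKM) and distal nephron markers (1157 against 817). The part of these cells in its level was not tested.

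Ckb (ENSMUSG00000001270.9, chr12:111669361-111672338, minus strand) followed the same order of tissues. Small intestine libraries held 174 and 104 FPKM, kidney libraries 42.1 and 40.5, lung libraries 27.7 and 29.2, and liver libraries 1.51 and 1.71. Both small intestine libraries were above all others, although they differed from each other by 0.73 on the log2 scale, more than 94.6% of the tested genes. The library with more Ckb also had more acinar transcript (2911 against 1338 FPKM) and more smooth muscle transcript (313 against 257), whose part in its level was not tested. The mean in small intestine was 139 ± 49.2 FPKM (SD, n = 2), 3.36 times that of kidney (41.3 ± 1.14) and 86.3 times that of liver (1.61 ± 0.140), or 47.0 times with median-of-ratios size factors. Kidney and lung (28.5 ± 1.07) were not told apart at the values as deposited, at 0.52 ± 0.23 on the log2 scale (standard error, limma adjusted p = 0.0720), whereas median-of-ratios size factors gave 1.59, a called difference, and equal sums in each library 0.09 (adjusted p = 0.742). The pseudogenes Ckb-ps1 and Ckb-ps2 share 2.08% and 2.05% of the 31-base stretches of Ckb, and each was at 3 reads or fewer in every library.

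Ckmt1 (ENSMUSG00000000308.14, chr2:121357714-121363737, plus strand) was the most abundant of the 6 genes in any library. It was at 572 and 583 FPKM in small intestine, at places 90 and 82 of all genes. Kidney libraries were at 16.0 and 13.1 FPKM, lung libraries at 8.37 and 5.58, and liver libraries at 1.01 and 0.621, the last from 23 and 16 reads. Small intestine stood apart from the other organs, with 96.3% of the summed tissue means. Its mean of 578 ± 7.74 FPKM (SD, n = 2) was 39.8 times that of kidney (14.5 ± 2.03), 82.9 times that of lung (6.97 ± 1.97) and 711 times that of liver (0.813 ± 0.272). With median-of-ratios size factors the ratios to lung and liver were 143 and 383. Enterocyte markers, at 5886 to 7668 FPKM in small intestine, summed to 16.0 in lung replicate 1 and 3.25 in replicate 2. Ckmt1 was also higher in lung replicate 1. In liver, where Ckmt1 was lowest, these markers summed to 147 and 132, of which Apob made up 98.4 and 74.7. In kidney they summed to 39.8 and 34.0. Their part in the lung level of Ckmt1 was not tested. Small intestine exceeded liver by 8.33 ± 0.21 on the log2 scale (standard error, limma adjusted p = 1.50e-07). Kidney and lung differed by 0.98 (adjusted p = 0.00404), just under the fold threshold, and by 1.92 with median-of-ratios size factors, which passed. Without kidney replicate 2 the same difference was 1.11 and without lung replicate 1 it was 1.23, called in both. With equal sums in each library it was 0.58 (adjusted p = 0.0628), and without lung replicate 2 it was 0.72 (adjusted p = 0.0324). Lung against liver, 2.12 (adjusted p = 5.24e-05), was 0.99 and 0.86 with median-of-ratios and quantile scaling and then not called.

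Ckm (ENSMUSG00000030399.2, chr7:19404776-19422841, plus strand), the form of striated muscle, was the lowest of the 6 genes. It was listed at 0 in both kidney libraries and in liver replicate 1, and at 0.0333 FPKM, 1 read, in liver replicate 2. Lung libraries were at 3.66 and 2.07 FPKM, from 104 and 75 reads, and small intestine libraries at 0.990 and 1.09 FPKM, from 27 and 36 reads. Ckm was therefore detected in lung and small intestine and not at this depth in kidney. Against a floor of 3 reads per library, lung was at least 48.1-fold higher than kidney and small intestine at least 17.5-fold higher. Against the single read of liver, the ratio of lung was 157 (95% exact interval 27.9 to 6243) and that of small intestine 59.4 (10.3 to 2381), intervals that cover counting error only. With median-of-ratios size factors the ratio of tissue means went from 172 to 58.6 for lung over liver and from 62.6 to 36.6 for small intestine over liver. Ckm passed the filter on low values through lung, so lung had to differ from kidney and liver, and these differences are given with no p.

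The calls of small intestine for Ckm sat at the fold threshold on the log2(FPKM + 1) scale. Its log2 difference was 1.01 from liver (limma adjusted p = 0.00292), and -1.03 for kidney minus small intestine (adjusted p = 0.00315). Without small intestine replicate 2 they were 0.97 and -0.99, with median-of-ratios size factors 0.94 and -0.98, and without liver replicate 1 the former was 0.98, none of them called. With a pseudocount of 0.1 they were 3.30 and -3.51, and with limma-voom on recovered reads 5.10 and -6.90, all called. Small intestine minus lung was -0.89 (adjusted p = 0.00453) as deposited, and it was called at -1.19 without lung replicate 2 and at -1.33 with a pseudocount of 0.1. It was -0.59 without lung replicate 1 and -0.35 (adjusted p = 0.131) with median-of-ratios size factors.

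Muscle transcripts, like Ckm, were higher in lung and small intestine than in kidney and liver, but not in the same order of libraries. The 8 skeletal muscle markers summed to 46.4 and 6.93 FPKM in the lung libraries, 10.3 and 10.3 in small intestine and below 1 in each kidney and liver library, where 5 of 8 were at 0 in both libraries of the organ. The 9 cardiac markers summed to 193 and 194 FPKM in lung, 8.46 and 9.17 in small intestine and at most 1.63 elsewhere. Acta1, the actin of skeletal muscle, was at 26.7 FPKM in lung replicate 1 and 0.262 in replicate 2, and Ckm was also higher in replicate 1. In small intestine, where Ckm was lower than in either lung library, Acta1 was at 6.82 and 7.76 FPKM, above lung replicate 2. Smooth muscle markers (7 genes) summed to 256 to 259.9 FPKM in lung and 257 to 313 in small intestine. Their part in the level of Ckm was not tested. The antisense gene A930016O22Rik (chr7:19417466-19421417, minus strand) overlaps Ckm and shares 12.8% of its 31-base stretches, and the use of strand in counting is not given in the sources used here, but it was at 1 read or fewer in every library.

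Ckmt2, which is not among the 6 genes, was measured beside them as the remaining creatine kinase. It was at 7.65 and 8.45 FPKM in lung, at 0.0719 and 0.178 in small intestine, at 0.0652 in liver replicate 2 and listed at 0 in liver replicate 1 and both kidney libraries. Lung was at least 69.0-fold above the floor of kidney and 62.2 times small intestine (95% exact interval 24.0 to 230.0, counting error only), and the ratio of tissue means for the latter went from 64.3 to 36.8 with median-of-ratios size factors. Lung, where the cardiac markers were highest, held 267 reads of this form in all, beside 4 in small intestine and 1 in liver.

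The sum of the 4 creatine kinases was 747 and 689 FPKM in small intestine, 58.1 and 53.6 in kidney, 47.4 and 45.3 in lung and 2.51 and 2.43 in liver. The mix of forms differed between organs. Ckmt1 made up 76.6% and 84.7% of the sum in the small intestine libraries and Ckb 23.2% and 15.1%. In kidney this was reversed, with Ckb at 72.5% and 75.6% and Ckmt1 at 27.5% and 24.4%. In lung each of the 4 forms took 4.57% or more of the sum in both libraries, with means of 61.5% ± 4.25 Ckb, 15.0% ± 3.79 Ckmt1, 17.4% ± 1.77 Ckmt2 and 6.15% ± 2.22 Ckm (SD, n = 2). Liver shares, 65.2% ± 7.32 Ckb and 32.8% ± 10.2 Ckmt1, rest on few reads. The mitochondrial forms together took 80.7% ± 5.73 of the sum in small intestine, beside 26.0% ± 2.16 in kidney, 32.4% ± 2.02 in lung and 34.1% ± 8.29 in liver.

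**Figure D4:**
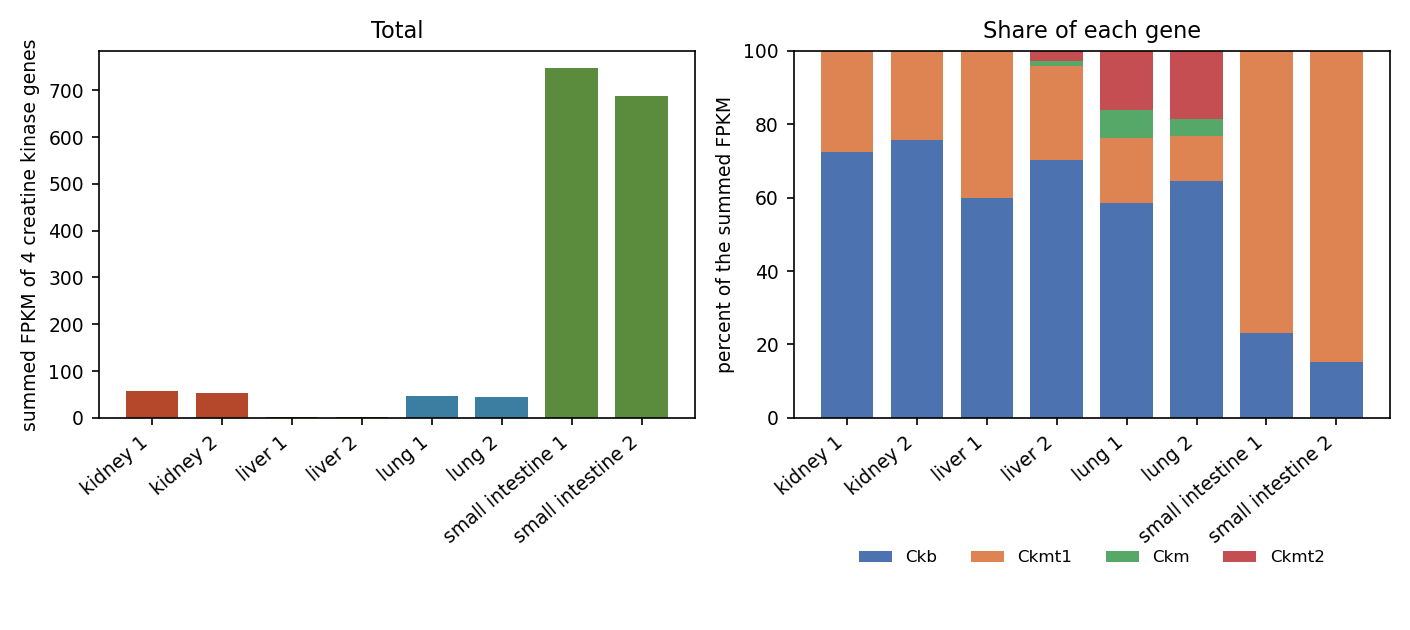
Left, summed FPKM of Ckb, Ckm, Ckmt1 and Ckmt2 in each library, with the vertical axis from 0. Right, the percent of that sum taken by each gene. Small intestine has 747 and 689 FPKM, mostly Ckmt1, kidney 58.1 and 53.6, mostly Ckb, and the liver bars, at 2.51 and 2.43, are barely visible.

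The other 5 comparisons share libraries with that of kidney and liver and with each other, so they are set side by side and not counted together. Kidney against lung called 3 of the 6 genes (background 50.3% of all genes tested, 8.87% higher and 41.4% lower in kidney), namely Gatm at 5.93 and Slc6a8 at 1.47, higher in kidney, and Ckm, lower. Without Ckm, whose call follows from the filter, this was 2 of 5. Kidney against small intestine called 6 of 6 (background 29.5%, 10.7% higher and 18.8% lower in kidney), with Gatm at 6.67 and Gamt at 1.90 higher in kidney, and Slc6a8 at -1.90, Ckb at -1.68, Ckm at -1.03 and Ckmt1 at -5.23 lower. Both synthesis enzymes were thus higher in kidney, and the transporter and the kinases in small intestine. Lung against liver called 5 of 6 (background 62.7%, 55.5% higher and 7.21% lower in lung), with Gamt at -2.96 lower in lung, and Slc6a8 at 2.21, Ckb at 3.50, Ckm at 1.90 and Ckmt1 at 2.12 higher, and without Ckm, for the same reason, 4 of 5. Small intestine against liver called 5 of 6 (background 36.2%, 28.3% higher and 7.89% lower in small intestine), with Gamt at -3.99 lower and Slc6a8 at 5.59, Ckb at 5.70, Ckm and Ckmt1 higher. Small intestine against lung called 4 of 6 (background 40.6%, 10.1% higher and 30.6% lower in small intestine), with Gamt lower and Slc6a8 at 3.38, Ckb at 2.20 and Ckmt1 at 6.20 higher.

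These counts depend on how the libraries are put on a common scale. Median-of-ratios size factors moved the median log2 difference of all genes from 0.27 to 0 for kidney minus liver, from -0.81 to -0.0041 for kidney minus lung and from 1.13 to 0.0033 for lung minus liver. For the comparisons of small intestine the median moved from -0.18 to -0.0033 (kidney minus small intestine), from 0.50 to 0.03 (small intestine minus liver) and from -0.57 to 0.02 (small intestine minus lung). The share of called genes that were higher in the first organ then went from 70.1% to 51.2% for kidney and liver, from 17.6% to 50.1% for kidney and lung, from 36.3% to 47.9% for kidney and small intestine, from 88.5% to 50.9% for lung and liver, from 78.2% to 52.0% for small intestine and liver, and from 24.8% to 51.7% for small intestine and lung. Under that scaling 6 of the 6 genes were called between kidney and lung, with Gamt, Ckb and Ckmt1 added, all higher in kidney, and 5 of 5 without Ckm, where 35.7% of all genes tested were called (17.9% higher and 17.8% lower in kidney).

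The substrates of creatine synthesis come from arginine, glycine and methyl metabolism, and the genes of these paths were compared between kidney and liver in the same fit, in which 16.2% of all genes were called higher and 6.9% lower in kidney. Of the 6 genes of arginine and the urea cycle given here, 5 were called lower in kidney and none higher, and 1 was not called, with a median log2 difference of -3.09 beside 0.27 for all genes. Cps1, which makes carbamoyl phosphate, differed by -8.37, Otc, which makes citrulline, by -7.01, and Nags, which makes the activator of Cps1, by -3.64. Oat, the ornithine aminotransferase, was at 75.9 and 59.1 FPKM in kidney and 480 and 326 in liver, a difference of -2.54. Otc was at 0.0330 and 0.341 FPKM in kidney but at 137 and 166 in liver, and small intestine held 50.6 and 56.8. Cps1 and Otc, which together form citrulline, were thus high in liver and small intestine and below 1 FPKM in kidney. Ass1 and Asl, which turn citrulline to arginine, were picked with their values already known. Ass1 was at 869 and 895 FPKM in kidney and 1050.4 and 709 in liver, where the difference was 0.03 (limma adjusted p = 0.942), and at 16.5 or less in lung and small intestine. It was 1.53 with quantile normalization (adjusted p = 0.000830), a call, and -0.52, not called, with median-of-ratios size factors. Asl was lower in kidney, at 36.3 and 32.7 FPKM against 102 and 94.0 in liver, a difference of -1.48 (limma adjusted p = 0.000116), and -0.91, not called, with equal sums after mitochondrial genes were left out.

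Of 9 genes of glycine and serine metabolism, 4 were called higher and 2 lower in kidney and 3 were not called, with a median of 0.51. With median-of-ratios size factors 2 were higher and 2 lower (12.1% and 11.6% of all genes) and the median was -0.02, so the list as a whole had no firm direction. Without kidney replicate 2, or without any 1 library of liver or small intestine, 1 was lower. Psat1 and Phgdh, enzymes of serine synthesis, were at 5.66 and 6.37 and at 4.22 and 5.46 FPKM in kidney and below 0.2 in each liver library, with log2 differences of 2.68 and 2.42. Dld, a shared subunit of the glycine cleavage system and of dehydrogenase complexes, differed by 1.44, and by 0.91, not called, with median-of-ratios size factors. Shmt1, the cytosolic enzyme that interconverts serine and glycine, was lower in kidney by -1.66, at 13.6 and 10.1 FPKM against 38.0 and 40.2.

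Of 14 genes of the methionine cycle and its branches, 8 were called lower in kidney, 1 higher and 5 neither way, with a median of -1.76, and 4 were called higher without kidney replicate 2. With equal sums after mitochondrial genes were left out, 7 were lower and 4 higher, where 5.54% of all genes were lower and 31.9% higher. Mat1a, the liver form of methionine adenosyltransferase, which makes S-adenosylmethionine, was at 642 and 560.1 FPKM in liver and 0.269 and 0.666 in kidney, a difference of -8.69. Mat2a, the form of this enzyme in most other tissues, singled out after its values were seen, was at 127 and 87.9 FPKM in kidney and 57.6 and 54.4 in liver. Its difference was 0.91 (limma adjusted p = 0.0117), not called, and 1.48, called, with equal sums after mitochondrial genes were left out. Of the listed methyltransferases that use S-adenosylmethionine, Pemt, of phosphatidylcholine synthesis, differed by -6.51 and Gnmt, which methylates glycine, by -5.96. Gnmt was far above Gamt in liver, at 1358 and 1080.5 FPKM. Bhmt, which remethylates homocysteine with betaine, was at 0.421 and 0.783 FPKM in kidney and 292 and 279 in liver. It passed the filter on low values through liver alone and so had to differ, and without it 7 of 13 genes were lower, or 6 of 13 with equal sums after mitochondrial genes were left out, and the median was -1.56.

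Of 11 further phosphagen and carrier genes, 5 were called higher and 2 lower in kidney and 4 were not called, with a median of -0.05. Without kidney replicate 2, 1 was lower. Slc16a9, a transporter of the monocarboxylate family, was at 22.3 and 14.1 FPKM in kidney and 0.338 and 0.275 in liver, a difference of 3.84. The adenylate kinases Ak4 and Ak1 differed by 2.81 and 2.57. Slc6a12, a betaine and GABA transporter of the family of Slc6a8, was at 0.474 and 0.454 FPKM in kidney and 18.4 and 18.3 in liver. It too passed the filter through the liver libraries alone and so had to differ, and without it 5 of 10 genes were higher, 1 was lower and the median was 0.72. It drops out without either liver library, which leaves 0 lower without liver replicate 1 and 1 without replicate 2. Apart from Bhmt and Slc6a12, the 14 other genes named by size of difference were picked among called genes. Their adjusted p, at most 0.000232 in the limma fit, had to be low for that reason. Each kept its sign under every scaling run. Ckmt2 was not called, at -0.05 (adjusted p = 0.834).

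**Figure D5:**
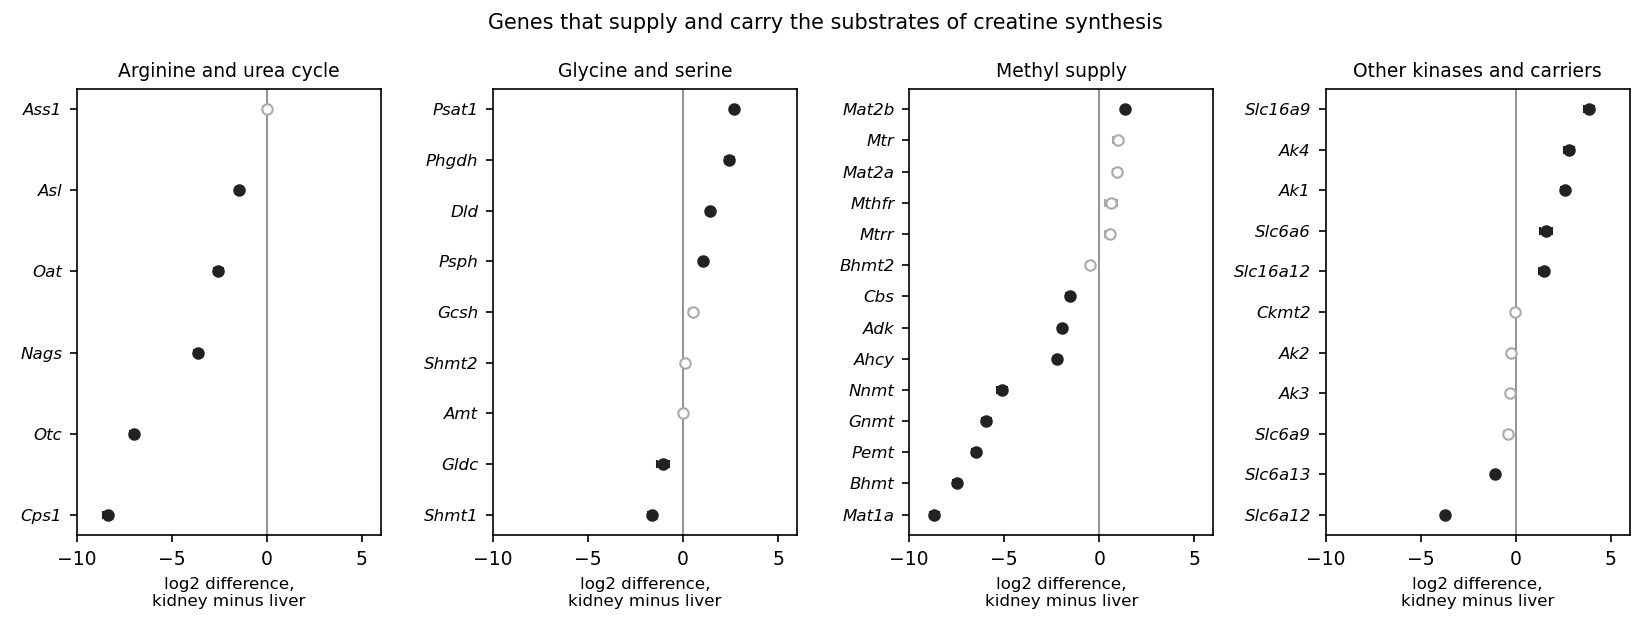
Log2 difference, kidney minus liver, on the log2(FPKM + 1) scale for the genes of 4 lists around creatine synthesis, with bars of 1 standard error. Filled points passed both thresholds, of which Bhmt and Slc6a12 passed the filter on low values through liver alone. In the arginine list 5 of 6 genes are filled and lie to the left, lower in kidney, and in the methyl supply list 8 of 14, while glycine genes lie on both sides.

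The genes whose pattern was most like each member were found by the Pearson correlation of log2(FPKM + 1) over the 8 libraries, which share tissues in pairs, among genes at 10 FPKM or more in at least 2 libraries. The coefficients describe these libraries and carry no test. Gatm was nearest to Umod, Acsm2 and Pth1r (r = 0.998 each), and 137 genes had r over 0.95. Umod, which encodes uromodulin of the loop of Henle, was at 753 and 554 FPKM in kidney and below 3 in every other library. As the libraries are of whole organs, this likeness does not place Gatm in a part of the kidney. Gamt was nearest to Ttc38 (r = 0.993), C1rl (0.989) and Azgp1 (0.988), and 56 genes passed 0.95, the fewest of the 6. Slc6a8 was nearest to Vwa1, Tprn and Arhgef16 (0.998, 0.997 and 0.996), Ckb to Atpif1, Rnf186 and Tmem171 (0.996, 0.993 and 0.992) and Ckmt1 to Pls1, Epb41l3 and 2210016F16Rik (0.997, 0.997 and 0.995). Pls1, an actin bundling protein of intestinal microvilli, was at 190.3 and 238 FPKM in small intestine. Ckm was nearest to the immunoglobulin segments Ighv1-59 (0.994) and Igkv3-1 (0.993) and to Mir142hg (0.990), transcripts of blood and immune cells, which like Ckm were higher in lung replicate 1 than in replicate 2. Among the members themselves r was 0.96 for Slc6a8 with Ckb and 0.94 for Slc6a8 with Ckmt1, and 0.15 for Gatm with Gamt (n = 8 libraries).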

How the data were processed

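Polyadenylated RNA of kidney, liver, lung and small intestine was captured on beads, converted to double-stranded cDNA and sequenced, as 8 libraries, 2 of each tissue. The authors picked out reads by sample index with bbduk, mapped them to the Ensembl mouse genome (GRCm38) with STAR 2.5.3a (default parameters) and deposited FPKM values from DESeq2's fpkm function. How reads were counted per gene, whether strand was used and how reads mapping to several places were handled are not given in the sources used here. Groups and replicate numbers came from the sample labels. Of 52195 symbols, 51844 (99.3%) had exactly 1 match in GENCODE M21, the source of coordinates and exon lengths.

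Values were transformed to log2(FPKM + 1), with a pseudocount of 1. The 16328 genes that reached 1 FPKM in 2 or more libraries entered limma 3.58.1 under R 4.3.3 (lmFit, eBayes with trend), all 8 libraries in one fit of the 4 tissues, over the 6 pairs of tissues, with Benjamini-Hochberg adjustment over all genes tested. Calls needed a log2 difference of more than 1 in size and an adjusted p below 0.05. Gatm in kidney and Gamt in liver were also compared with the other 6 libraries by an exact permutation test over all choices of 2 of the 8 libraries. Read numbers were recovered by multiplying FPKM by exon length and dividing by what 1 read is worth in the library. The limma step was tested on simulated data. Other steps ran in Python 3.11.15 (pandas 2.3.3, numpy 2.4.6, scipy 1.17.1, matplotlib 3.10.9).

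The members, the gene lists, the markers and the tests were chosen with earlier results of these data known. Named genes were the members, up to 4 called genes of each list with the largest difference between kidney and liver, Ckmt2, and the 3 genes most correlated with each member among those at 10 FPKM or more in at least 2 libraries. Alternatives changed the pseudocount, the filter, the scaling between libraries, the trend, the replicate block and the libraries included. Results of 2 further genes, left out of the arginine list and its counts, are not reported here. Each value column of the deposited table matched a sample.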

Additional observations from a re-analysis of the deposited data

How the results depend on the processing

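Of 1040 values recomputed under an alternative, 960 kept their direction and their side of the thresholds, or for counts lay within 1.5 times. Among these, Ckm, kidney minus liver, was at 0 without liver replicate 2. The log2 ratio of Gatm to Gamt counted as kept within the SD of its tissue. Scaling, or leaving out 1 library, cannot move it further than that. The difference of Gatm between lung and liver, not called at -0.08, changed sign without a call to 0.13 with equal sums in each library, 0.02 without liver replicate 2 and 0.20 without lung replicate 2, and leaving out 1 library gave -0.36 to 0.20. For single genes in single comparisons 556 of 606 values kept their direction and call. Of the rest, 18 were no longer called, 29 became called and these 3 changed sign. The filter, the trend, the replicate block and libraries of other tissues do not enter a log2 difference. In those settings only adjusted p could change, so the share that kept its direction says little about them. Gatm and Gamt kept their calls between kidney and liver under every alternative run. The kidney to lung comparison called 6 of the 6 genes, in place of 3 (5 in place of 2 without Ckm), with median-of-ratios size factors, with quantile normalization, and with equal sums after mitochondrial genes and their copies were left out, where 35.7%, 33.8% and 38.8% of all genes were called in place of 50.3%. The last setting called 6013 of all genes between kidney and liver, in place of 3772. Between lung and liver, median-of-ratios and quantile scaling called 6102 and 5705 genes in place of 10236. For these the cause was not tested. Leaving out 1 library gave a difference of Gatm in kidney from the other libraries between 5.98 and 6.25 and of Gamt in liver between 2.80 and 3.22. Without a library of kidney for Gatm, or of liver for Gamt, the exact p was 0.143, the smallest that 1 library against 6 allows.

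Of the genes listed for arginine, 1 (Ass1) was called higher in kidney than in liver with quantile normalization, in place of 0. Of the glycine genes, 2 were higher with median-of-ratios size factors in place of 4, and 1 was lower with a pseudocount of 0.1, with no filter and with equal sums without mitochondrial genes in place of 2. Leaving out 1 library gave 1 to 2 lower. Of the methyl supply genes, 2 were higher with a pseudocount of 0.1 and with limma-voom on recovered reads (added once the data had been seen), 0 with median-of-ratios and quantile scaling and 4 with equal sums without mitochondrial genes, in place of 1, and 1 to 4 when a library was left out. Of the phosphagen and carrier genes, 1 was lower with equal sums without mitochondrial genes in place of 2, and 0 to 2 when a library was left out. A filter at 5 FPKM removed Ckm and gave no value for it.

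Whether replicate numbers pair the libraries was checked by the correlation of their deviations from the tissue means, which ran from -0.22 to 0.05 over the pairs of tissues. Tissues were taken from the same mice, but the labels do not tie the numbers to mice, so a shared number was not taken as a shared mouse. The replicate block changed no call of the 6 genes and gave 3766 called genes between kidney and liver in place of 3772, with Gatm at 5.85 (limma adjusted p = 5.59e-06) and Gamt at -2.09 (adjusted p = 0.000464). Where leaving out a library leaves 1 in a tissue, that library is assumed to vary like the others. Values at or under 3 reads, such as Ckm in kidney and liver, are limited by depth.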

Other observations

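The libraries of a tissue differed more for some creatine genes than for most genes. In lung, Gatm was higher in replicate 1 by 0.57 on the log2(FPKM + 1) scale, a difference larger than that of 93.1% of the tested genes between the same libraries, while Gamt was lower in replicate 1, at -0.45 (larger in size than 89.4% of genes). Ckm and Ckmt1 were also higher in lung replicate 1, by 0.60 and 0.51. The median absolute difference of the tested genes between the lung libraries was 0.15. In small intestine, Gatm and Ckb were higher in replicate 1, by 0.62 and 0.73, and Slc6a8 was lower, at -0.41, where the median over genes was 0.18. Other members were near or under these medians, with Slc6a8 and Ckb in lung at 0.15 and 0.07 in size. Gamt, Ckm and Ckmt1 in small intestine were at 0.17, 0.07 and 0.03. With 2 libraries per tissue these differences carry no test.

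Of the 3 enzymes of serine synthesis on the glycine list, Phgdh and Psat1 were below 0.2 FPKM in liver and above 1 in every other library. Phgdh was at 9.85 and 9.87 FPKM in lung, 7.43 and 4.37 in small intestine, and 0.0878 and 0.0779 in liver. Its log2 difference was 3.33 between lung and liver and 2.64 between small intestine and liver (limma adjusted p = 1.05e-05 and 6.21e-05). Psph was at 0.731 and 0.828 FPKM in liver. It was higher in lung by 1.14 and in kidney by 1.06 (limma adjusted p = 0.000264 and 0.00117), both called. The kidney call was lost with median-of-ratios size factors, quantile normalization or equal sums in each library (0.84, 0.72 and 0.93). The lung difference was no larger than the shift of all genes, whose median for lung minus liver was 1.13. That median was 0.0033 with median-of-ratios size factors, so the lung call rests on the scaling. In small intestine Psph was at 1.48 and 1.33 FPKM, a log2 difference from liver of 0.43 (limma adjusted p = 0.0438) under the fold threshold.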
